A study of Drosophila melanogaster with 2 samples.

Results

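Heat shock and chaperone genes of Drosophila melanogaster were examined for peaks of GFP-tagged CG8359, the gene now called hng2. The set held 10 of 13968 protein-coding genes: 5 small heat shock protein genes (Hsp67Bc, Hsp22, Hsp26, Hsp23 and Hsp27), the Hsp90 gene Hsp83, 3 Hsp70 cognates (Hsc70-3, Hsc70-4 and Hsc70-5) and the regulator Hsf. For each gene, every summit inside the gene or within 1 kb to either side of it was taken, together with the signal of its peak. These genes were selected on measured values of these same peak lists, so the counts over them are descriptions and carry no test.

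Chromatin immunoprecipitation followed by sequencing was done on whole embryos of mixed sex, 0 to 14 h old, from 1 transgenic line that stably expresses CG8359 with GFP fused to its C-terminus. The 2 samples, biological replicates 2 and 3, form 1 group with the same genotype, no treatment is named, and no group without the tag was analysed here. The antibody entry of the labels names CG8359 while their description names GFP, and the lists cannot tell which was used. Whole embryos mix many cell types, so a site occupied in few cells and a site occupied weakly in many cannot be told apart.

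Small heat shock proteins hold unfolding proteins in a soluble state, Hsp70 proteins bind and refold them with the energy of ATP, and Hsp90 proteins act late in the folding of client proteins such as kinases and steroid receptors. Heat shock factor, the product of Hsf, forms a trimer on stress and binds heat shock elements, which are alternating, inverted repeats of GAA-containing units. In flies the heat shock promoters are also known for GAGA factor, the product of Trl, which binds GA-rich repeats and keeps these promoters open before stress. The small heat shock genes lie together at cytological band 67B and are also induced by ecdysone during normal development. The tagged protein itself carries a MADF domain and a BESS motif, as several fly chromatin proteins do.

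The sequences below, from the RefSeq Release 6 genome, show what lay under some of the summits that the results turn on. The optimal list, which the authors made from both replicates by their irreproducible discovery rate procedure (IDR), had its strongest summit among these genes at Hsp27, shown over chr3L:9383811-9384010 on the plus strand. Hsp26, over chr3L:9377428-9377612 on the minus strand, is shown because its summit lay near GA repeats, which were on the side toward the gene. The Hsp83 element is 30 bases around the GAA-type repeat nearest to its strongest summit, chr3L:3193137-3193166, plus strand, and the Hsp83 intron summit is chr3L:3194185-3194384, plus strand. Hsc70-4, chr3R:15242279-15242478, plus strand, is a summit with neither kind of match. Hsp23, for contrast, had no optimal summit, and the 150 bases before its transcription start site (TSS) are shown, chr3L:9381732-9381881, plus strand. Capitals mark GAANNTTC or TTCNNGAA (a heat shock element of 2 units) and runs of GAGAG or CTCTC.
Hsp27 summit: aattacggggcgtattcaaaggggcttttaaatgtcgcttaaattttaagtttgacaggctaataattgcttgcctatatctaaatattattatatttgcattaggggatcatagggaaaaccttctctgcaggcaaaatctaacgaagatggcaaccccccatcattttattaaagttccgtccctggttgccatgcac
Hsp26 summit: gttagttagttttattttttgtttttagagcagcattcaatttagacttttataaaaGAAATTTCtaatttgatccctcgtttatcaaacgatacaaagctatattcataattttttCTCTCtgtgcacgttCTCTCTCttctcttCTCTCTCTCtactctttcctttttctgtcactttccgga
Hsp83 element: agaagcctctaGAAGTTTCtagagacttcc
Hsp83 intron summit: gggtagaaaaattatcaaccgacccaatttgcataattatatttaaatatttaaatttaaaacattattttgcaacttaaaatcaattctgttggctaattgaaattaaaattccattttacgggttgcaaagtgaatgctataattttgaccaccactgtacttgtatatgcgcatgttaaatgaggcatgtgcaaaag
Hsc70-4 summit: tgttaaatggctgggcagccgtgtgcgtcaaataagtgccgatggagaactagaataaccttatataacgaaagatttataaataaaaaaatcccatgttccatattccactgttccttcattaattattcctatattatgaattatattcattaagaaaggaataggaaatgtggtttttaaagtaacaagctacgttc
Hsp23 upstream: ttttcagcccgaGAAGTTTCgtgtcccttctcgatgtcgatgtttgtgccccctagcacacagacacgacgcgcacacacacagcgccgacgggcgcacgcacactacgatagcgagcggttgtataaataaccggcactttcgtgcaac

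Of the 10 genes, 7 had an optimal summit in the gene or 1 kb to each side, against 17.5% of all protein-coding genes. They were Hsp22, Hsp26, Hsp27, Hsp83, Hsc70-3, Hsc70-4 and Hsc70-5, and they held 8 optimal summits, since Hsp83 had a pair. For the same 7 genes an optimal summit was also no more than 500 bp from one of their TSSs, against 10.3% of all protein-coding genes. Since these lists chose the genes, nothing is read from the excess over the background. The median window searched was 4814.5 bp for the 10 genes and 4164.5 bp for all protein-coding genes. Hsp67Bc, Hsp23 and Hsf had no optimal summit in their windows.

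The 4 lists used were the optimal list of 3170 peaks and relaxed lists of 30000 peaks each for replicate 2, replicate 3 and both replicates pooled. The optimal list consisted of the 3170 pooled peaks of highest signal, so a rank in the optimal list is also a rank in the pooled list. The signal is the peak caller's own value against a control, is not scaled between lists, and is compared below by rank within a list. Optimal signals ranged from 137 to 22810, with a median of 213. The lists give no read numbers, so library depth is unknown and no interval is attached to a signal. To set the replicates beside each other, the 3170 strongest peaks of each were also taken.

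**Figure D1:**
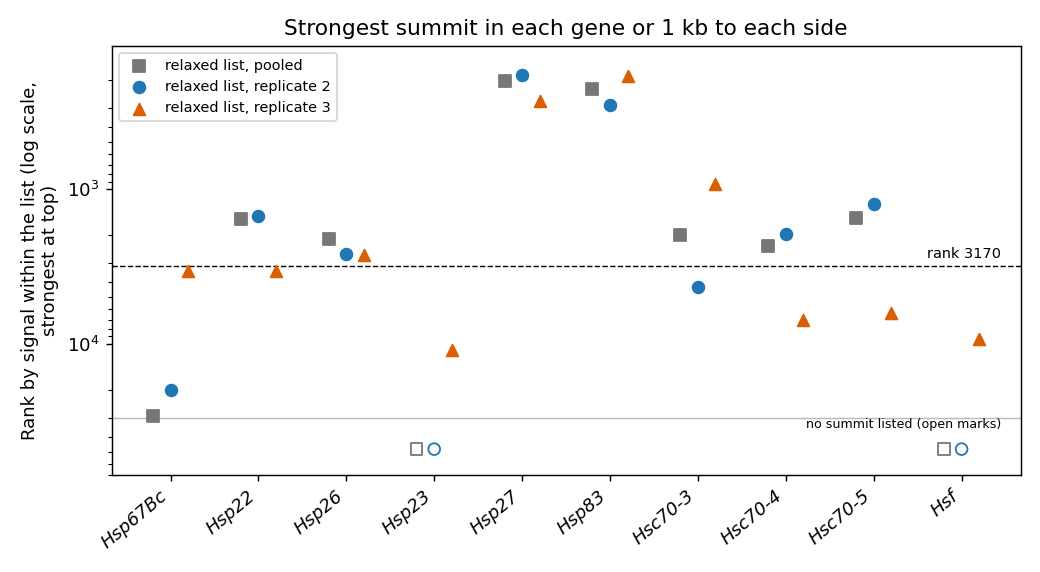
Rank by signal (log scale, strongest at the top) of the strongest summit in each gene or 1 kb to each side, in the relaxed lists of pooled reads, replicate 2 and replicate 3; open marks below the grey line stand for no listed summit and the dashed line is rank 3170. Hsp27 and Hsp83 lie between ranks 186 and 290 in all 3 lists, while Hsp23 and Hsf have a summit only in replicate 3.

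The 5 small heat shock genes fall in a cluster on chromosome arm 3L which, with 1 kb on each side, runs from 9370511 to 9386694 in build dm6, or 16184 bp. It held 3 optimal summits, 1.85 per 10 kb, against 0.23 per 10 kb over the main chromosome arms. The interval is bounded by genes selected on these same lists, so nothing is read from that excess. The relaxed pooled and replicate 2 lists had 5 summits each in the cluster, or 3.09 per 10 kb, and that of replicate 3 had 12, or 7.41 per 10 kb, against 2.18 per 10 kb over the main arms in each relaxed list. Of these, 3, 3 and 2 were among the 3170 strongest of the pooled list, replicate 2 and replicate 3. The replicates therefore differed in how many weak summits were listed here, and the strongest summit lay at Hsp27 in every list.

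Hsp27 (3L, 9384063 to 9385694, plus strand), a small heat shock protein found mainly in the nucleus, had the strongest summit of the 10 genes in the pooled data. Its optimal peak had a signal of 754, rank 203, with the summit at 9383911, 152 bp upstream of the only annotated TSS and outside any gene. In replicate 2 the signal was 559, rank 186, and the summit was 8 bp away. Replicate 3 gave 196, rank 274, with the summit 38 bp away. Both replicates therefore placed it far above their rank of 3170. The optimal peak was 228 bp wide, against a median of 400 bp in the list, and its interval overlapped no gene.

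Hsp26 (9376418 to 9377427, minus strand) codes for a cytosolic small heat shock protein whose promoter is a textbook case of paired heat shock elements and GA repeats. Its optimal summit at 9377513 had a signal of 177, rank 2104, and lay 86 bp and 138 bp upstream of its 2 TSSs. The signal in replicate 2 was 102, rank 2641, with a summit 2 bp away. Replicate 3 gave 62.7, rank 2684, with a summit 93 bp away and farther from Hsp26, 179 bp upstream of its nearer TSS. The ranks were close in both replicates, but the positions differed by 91 bp. The summit also fell within 1 kb of Hsp67Ba, another small heat shock gene, and of the noncoding RNA gene asRNA:CR43481, while the peak interval itself overlapped Hsp26 alone.

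Hsp22 (9372931 to 9374964, plus strand) codes for the small heat shock protein of the mitochondrial matrix. Its optimal summit at 9373508 had a signal of 215, rank 1561. It lay inside the gene, 577 bp downstream of the upstream TSS and 489 bp upstream of the downstream TSS at 9373997. At that position the annotation has an exon that is 5' UTR of the longer Hsp22 transcript and 3' UTR of CG4456, the gene formerly called Hsp67Bb, which overlaps Hsp22. The peak can therefore not be given to one of these genes. Replicate 2 gave a signal of 153, rank 1491, with the summit 10 bp away. In replicate 3 the signal was 56.5, rank 3419, with the summit 40 bp away, so the Hsp22 peak was outside the 3170 strongest of that replicate.

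Hsp67Bc (9371511 to 9372497, minus strand), a small heat shock protein that acts with the co-chaperone stv in clearing misfolded proteins, lay just outside the limit of 1 kb. The nearest optimal summit was the Hsp22 peak, 1011 bp from the gene and 11 bp past the window. In replicate 3 the summit of that same peak was at 9373468, rank 3419, which is inside the Hsp67Bc window. A separate pooled summit lay 71 bp upstream of the Hsp67Bc TSS with a signal of 49.0, rank 29341. Replicate 2 had one in the coding exon, 225 bp downstream of the TSS, with a signal of 37.5 and rank 19797. None of the summits in its window was among the 3170 strongest of a list.

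Hsp23 (9381882 to 9382765, plus strand), a cytosolic small heat shock protein, had no summit in its window in the optimal, pooled or replicate 2 lists. The nearest optimal summit was that of Hsp27, 1146 bp from the gene and 146 bp past the window. Replicate 3 listed a summit 268 bp upstream of the Hsp23 TSS, with a signal of 34.8 and rank 11075, and another 33 bp upstream, with a signal of 23.4 and rank 25910. The replicates thus differed in whether anything was listed at Hsp23.

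**Figure D2:**
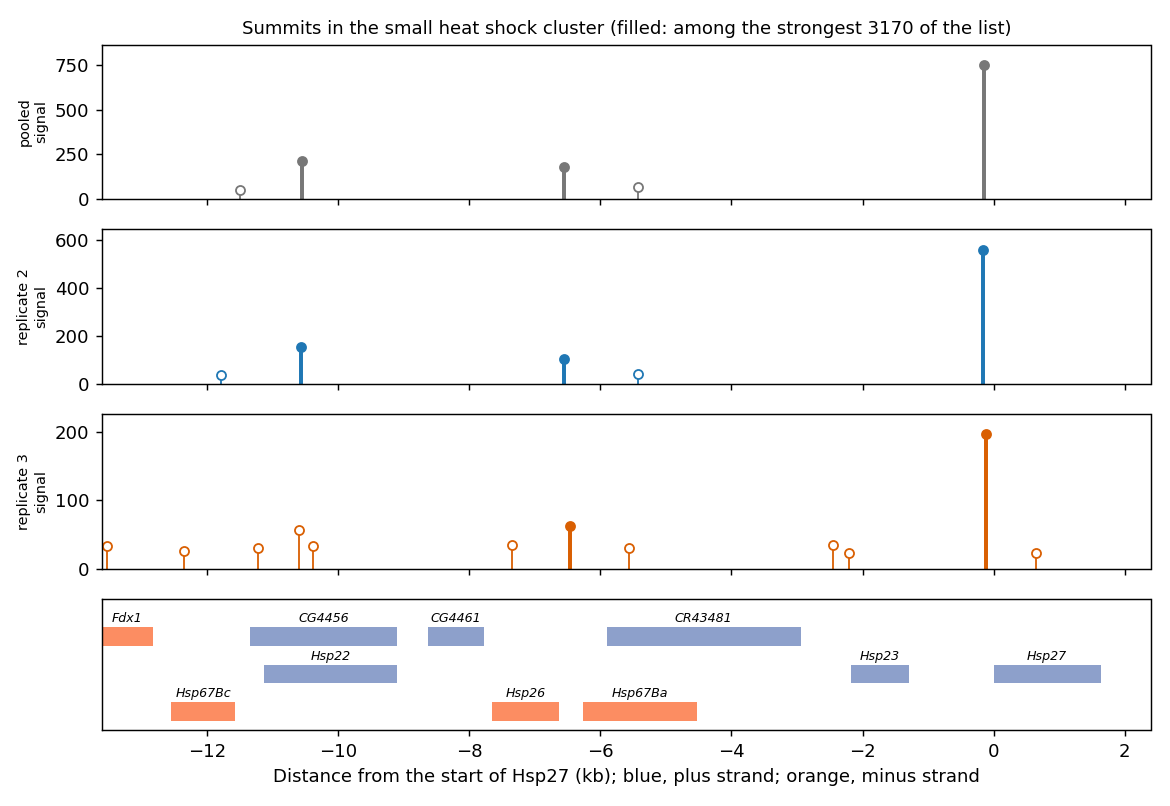
Signal (caller's units, separate scale for each list) of every relaxed summit in the small heat shock cluster for pooled reads, replicate 2 and replicate 3, against distance from the start of Hsp27 in kb, with the genes at the bottom; filled marks are among the 3170 strongest of their list. The pooled and replicate 2 lists share 3 filled summits, at Hsp22, Hsp26 and Hsp27, and replicate 3 has filled summits at Hsp26 and Hsp27.

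Across the cluster, 2 of the 3 optimal summits fell in the windows of more than 1 protein-coding gene: that at Hsp22 also in CG4456, and that at Hsp26 also in Hsp67Ba. The Hsp27 summit was in the window of Hsp27 alone. Fdx1 and CG4461, which border or lie within the cluster, had no optimal summit of their own. When each optimal summit was given to 1 gene only, by nearest TSS, the summits at Hsp22, Hsp26 and Hsp27 were kept for these 3 genes.

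Hsp83 (3L, 3192969 to 3197059, plus strand) codes for the cytosolic Hsp90, which is abundant in unstressed embryos and rises further on heat shock. Its strongest summit, at 3193123, had an optimal signal of 699.6 and rank 227, and lay 154 bp downstream of the TSS at 3192969 and 93 bp upstream of the TSS at 3193216. The position is annotated as 5' UTR exon of the longer transcript. Replicate 2 gave a signal of 423, rank 290, with the summit 3 bp away, and replicate 3 gave 267, rank 187, with the summit 10 bp away. This was the one of the 8 summits that ranked highest in replicate 3. The peak was 197 bp wide, and its summit also fell within 1 kb of CG14965.

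A second optimal summit of Hsp83 lay in the intron at 3194285, 1316 bp and 1069 bp downstream of the TSSs, with a signal of 313 and rank 850. Replicate 2 gave a signal of 209, rank 931, and replicate 3 gave 97.0, rank 1020, with summits 9 bp and 16 bp away. It was the only one of the 8 summits more than 500 bp from every TSS of its gene. Replicate 2 alone listed a further, weak summit in the coding exon, with a signal of 33.9 and rank 25384.

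Hsc70-3 (X, 11801696 to 11807117, minus strand) codes for the Hsp70 of the endoplasmic reticulum, known in mammals as BiP. Its optimal summit at 11807567 had a signal of 184, rank 1982, and lay 450 bp upstream of the first of its 4 TSSs. The peak had a signal of 74.7 and rank 4325 in replicate 2, with the summit 28 bp away. Replicate 3 gave 101, rank 927, with the summit 9 bp away. Hsc70-3 was thus the one gene of the 7 that ranked among the 3170 strongest in replicate 3 and not in replicate 2. Its summit also fell in the window of CG1578. A weaker summit lay in an intron near the TSS at 11806353, listed in the pooled list (signal 78.0, rank 10024), replicate 2 (47.8, rank 10686) and replicate 3 (38.3, rank 8754).

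Hsc70-4 (3R, 15242687 to 15246614, plus strand) codes for the main constitutive Hsp70 of the cytosol, which also strips clathrin coats from vesicles. The optimal summit at 15242379 had a signal of 166, rank 2353, the weakest of the 8. It lay 308 bp upstream of the first of 6 TSSs and closer, 143 bp, to the TSS of tefu, the fly ATM kinase gene, so that it leaves Hsc70-4 when a summit is given only to the nearest TSS. Replicate 2 gave a signal of 126, rank 1977, at the same base. Replicate 3 also listed that base, but with a signal of 22.1 and rank 28662 of 30000. Its own strongest summit at Hsc70-4 was in an intron at 15243034, 122 bp upstream of the TSS at 15243156, with a signal of 41.9 and rank 7051. The optimal call at Hsc70-4 therefore had a strong counterpart in replicate 2 only.

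Hsc70-5 (2R, 14252598 to 14256192, minus strand) codes for the Hsp70 of mitochondria, known in mammals as mortalin. Its optimal summit at 14256185 had a signal of 216, rank 1543, and lay 7 bp downstream of one TSS and 124 bp upstream of the other, in the annotated 5' UTR. In replicate 2 it had a signal of 173, rank 1257, with the summit 9 bp away. Replicate 3 gave 43.6, rank 6358, with the summit 16 bp away. The position was shared by both replicates and the rank was not. The summit also fell in the window of CG8531. A second summit upstream, 183 bp from the TSS, was listed in replicate 2 with a signal of 84.3 and rank 3541, just below the 3170 strongest, in the pooled list with a signal of 52.4 and rank 25343, and not in replicate 3.

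Hsf (2R, 18130303 to 18134634, minus strand) codes for heat shock factor itself. The nearest optimal summit was 35069 bp from the gene, and the nearest pooled summit 4437 bp. Only replicate 3 listed a summit in its window, 24 bp downstream of the TSS in the 5' UTR, with a signal of 37.3 and rank 9333. Hsf was the gene of the 10 farthest from an optimal summit.

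**Figure D3:**
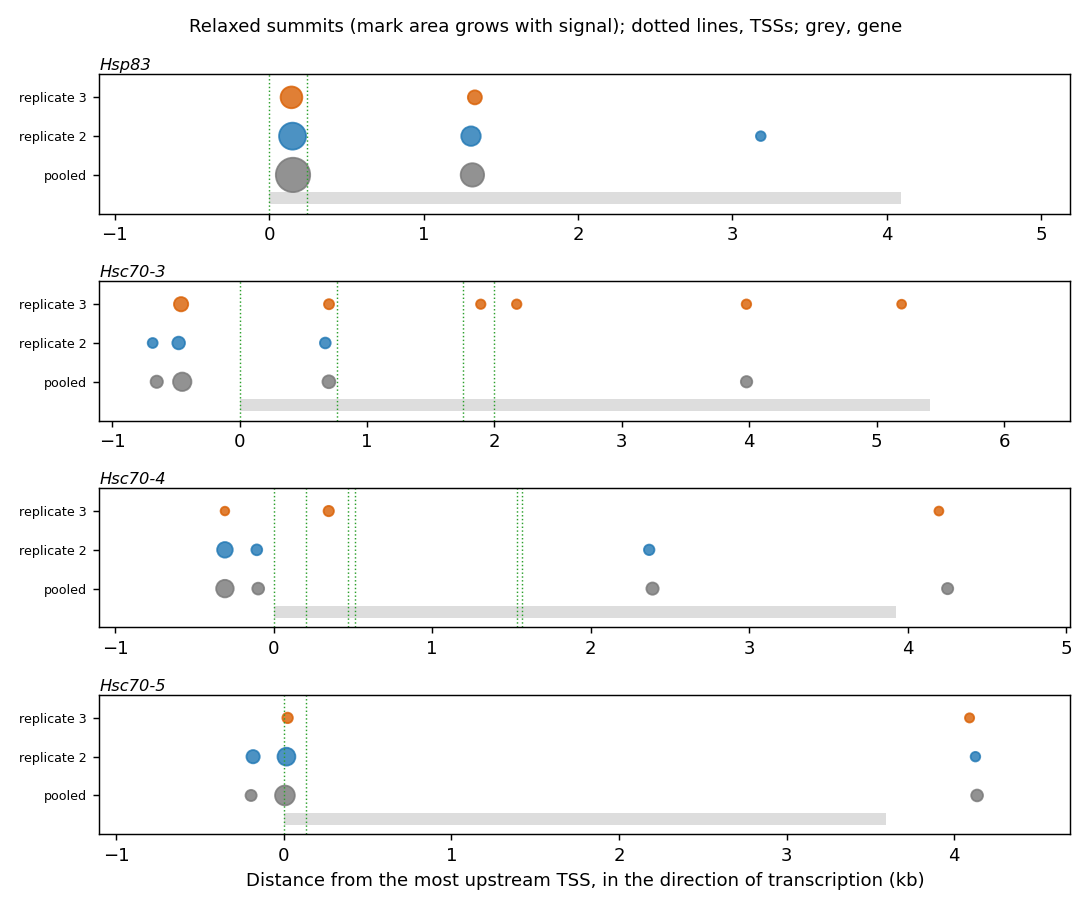
Relaxed summits of the pooled list, replicate 2 and replicate 3 at Hsp83, Hsc70-3, Hsc70-4 and Hsc70-5, against distance from the most upstream TSS in kb in the direction of transcription; mark area grows with the signal of the list, dotted lines are TSSs and the grey bar is the gene. At Hsp83 both summits recur in all 3 lists, and at Hsc70-4 the summit 308 bp upstream is large in replicate 2 and small in replicate 3.

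All 8 optimal summits had a summit within 100 bp in the relaxed lists of both replicates, as did 89.2% of all 3170 optimal summits. Limited to the 3170 strongest of each replicate, 7 of the 8 had one in replicate 2 and 5 in replicate 3, and 4 had one in both: those at Hsp26 and Hsp27 and both at Hsp83. Over all optimal summits the shares were 84.4% in replicate 2, 62.8% in replicate 3 and 50.4% in both, so the 8 were close to the list as a whole. Counted by gene, in replicate 2 the 3170 strongest peaks reached the windows of 6 of the 10 genes, against 17.9% of all protein-coding genes, and in replicate 3 those of 4 of 10, against 17.1%. Hsp26, Hsp27 and Hsp83 were in both counts. Hsp22, Hsc70-4 and Hsc70-5 were counted in replicate 2 alone, and Hsc70-3 in replicate 3 alone.

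The relaxed lists gave a summit at most genes. Of the 10 genes, 8 had a relaxed pooled summit, against 69.2% of all protein-coding genes. In replicate 2 there were 8 of 10, against 67.3%, and in replicate 3 there were 10 of 10, against 68.2%. A relaxed summit alone, as at Hsp23 and Hsf in replicate 3, is thus what most protein-coding genes have in these lists.

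The 8 optimal summits lay 7 to 1069 bp from the nearest TSS of their gene, with a median of 230.0 bp, and 7 of the 8, or 87.5%, lay within 500 bp. To the nearest TSS of any gene, which for the Hsc70-4 summit is that of tefu, the median was 147.5 bp. Over the whole optimal list the median distance to the nearest TSS of any gene was 884 bp, and 41.5% lay within 500 bp. The 8 were taken only from within a gene or 1 kb of it, and the whole list had no such limit. A shorter distance is therefore partly built in, and nothing is read from it. The side of the TSS varied. Hsp26, Hsp27, Hsc70-3 and Hsc70-4 had their summits upstream of every annotated TSS, those of Hsp22, Hsc70-5 and the strongest of Hsp83 lay between 2 alternative TSSs, and the intron summit of Hsp83 lay downstream of both.

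Other chaperone genes were counted in 7 lists of 70 names, of which 67 were found in the annotation. In all, 17 of the 67, or 25.4%, had an optimal summit in the gene or 1 kb to each side; outside the 10 genes it was 10 of 57, or 17.5%, the same share as over all protein-coding genes. Among 13 small heat shock genes there were 5, the 2 outside the set being CG4456 and Hsp67Ba, which share the peaks at Hsp22 and Hsp26. The Hsp70 list had 3 of 13, with none among its 10 other genes, which include the heat-inducible Hsp70A and Hsp70B copies. Those copies are nearly identical, and how reads with several matches were placed is not given in the sources used here, so the lack of a peak there is uncertain. The Hsp90 list had Hsp83 alone of 3 genes, with neither Gp93 nor Trap1, the Hsp90 proteins of the endoplasmic reticulum and mitochondria.

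Of 13 chaperonin genes, CG11267 alone had one, with a signal of 232 and rank 1400, 173 bp from a TSS. The J-domain proteins, which deliver clients to Hsp70, had 4 of 12: CG5504 (signal 764, rank 199), mrj (266, rank 1107), DnaJ-H (187, rank 1932) and Csp (159, rank 2516), the last a protein of synaptic vesicles. These summits lay 2795 bp, 298 bp, 125 bp and 85 bp from the nearest TSS of their gene, in that order. Of 11 co-chaperones there were 2, stv (372, rank 604), the BAG-domain partner of Hsp70, and Stip1 (242, rank 1316), which links Hsp70 to Hsp90. The stv summit lay 516 bp and the Stip1 summit 2693 bp from the nearest TSS of the gene. Trl, which codes for GAGA factor, had a signal of 1301 and rank 105, above every one of the 10 genes. That summit, the strongest at Trl, lay 1523 bp from the nearest TSS of Trl. Another, weaker optimal summit lay within 500 bp of a Trl TSS.

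**Figure D4:**
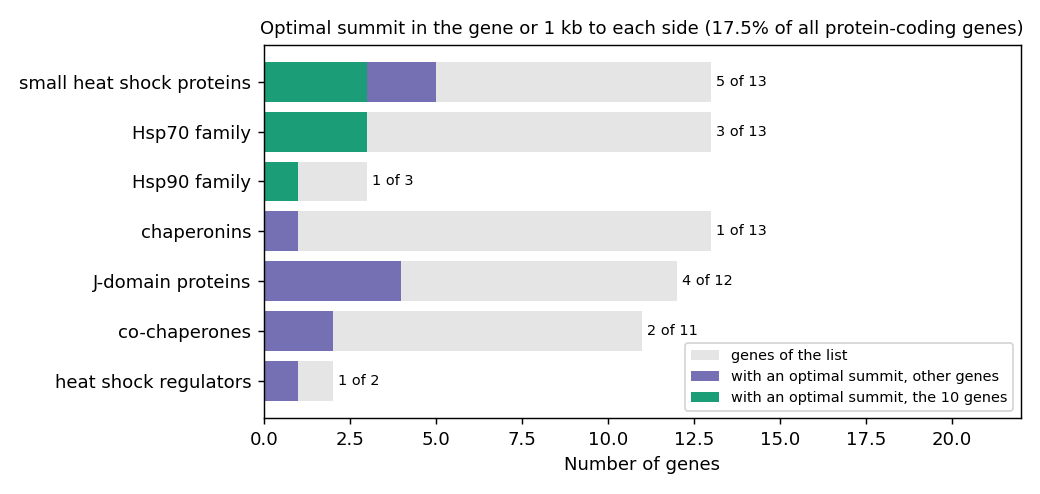
Number of genes in each chaperone list (grey) and number with an optimal summit in the gene or 1 kb to each side, split into the 10 genes (green) and other genes of the list (purple). The bars reach 5 of 13 small heat shock genes, 3 of 13 of the Hsp70 family and 4 of 12 J-domain genes, beside 17.5% of all protein-coding genes.

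Motifs were searched on both strands in 200 bp centred on each optimal summit. The heat shock element of 2 units was GAANNTTC or TTCNNGAA, the element of 3 units was either of them extended by a further alternating unit, and the GAGA repeat was GAGAGAG or CTCTCTC; a 3-unit element contains a pair of overlapping 2-unit ones. The 2-unit element was in 2 of the 8 windows, those of Hsp26 and of the strongest Hsp83 summit, against 9.75% of all 3170 optimal windows. At Hsp83 it lay 29 bp from the summit, between the summit and the TSS at 3193216. At Hsp26 the nearest was 39 bp from the summit, on the side away from the gene. No window of the 8 held an exact 3-unit element, against 0.189% of all. Only exact matches were counted in every motif search, so elements with a mismatched unit were missed. In the Hsp83 element shown above, the unit that follows GAAGTTTC reads gag in place of gaa.

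The GAGA repeat was in 2 of the 8 windows, those of Hsp26 and Hsc70-3, against 4.61% of all. At Hsc70-3 the nearest match was centred 3 bp from the summit, and at Hsp26 the nearest was 36 bp from it. The shorter GAGAG or CTCTC was in the same 2 windows, against 24.3% of all. The strongest summit of the 10 genes, at Hsp27, had neither motif within 100 bp, and its nearest matches were a GAGA repeat 162 bp and a 2-unit element 182 bp away. In windows of 400 bp the 2-unit element was in 5 of the 8, against 17.4% of all, and the GAGA repeat in 4 of the 8, against 12.6%. None of these motifs was found in all 8 windows, of either length.

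In the promoters of the genes themselves, 250 bases before to 50 after any TSS, the 2-unit element was in 7 of the 10 genes, against 19.9% of all protein-coding genes. The 7 were Hsp67Bc, Hsp22, Hsp26, Hsp23, Hsp83, Hsc70-3 and Hsc70-4, and so included Hsp67Bc and Hsp23, which had no optimal summit. The 3-unit element was in 1 of the 10, Hsc70-4, against 0.566% of all, and lay 199 bp upstream of the TSS at 15243156 and 241 bp upstream of that at 15243198. Its centre was 578 bp from the optimal summit and 77 bp from the strongest Hsc70-4 summit of replicate 3, at 15243034. Hsp23 had a 3-unit element farther out, 399 bp upstream of its TSS. GAGA repeats were in 3 of the 10, Hsp22, Hsp26 and Hsc70-3, against 9.06% of all. A gene counted if any of its TSSs had a match, so more bases were searched in genes with more TSSs. Hsc70-4 has 6 TSSs and Hsc70-3 has 4. The search length was not matched between genes, and nothing is read from these promoter shares.

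The GC content of the 8 windows of 200 bp ranged from 27.5% at Hsp22 to 48.5% at Hsc70-3, with 38.5% at Hsp27 and 48.0% at the strongest Hsp83 summit. Over all optimal windows the median was 36.0%, with quartiles of 31.0% and 42.5%. The 8 windows thus ran from below the lower quartile to above the upper one.

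**Figure D5:**
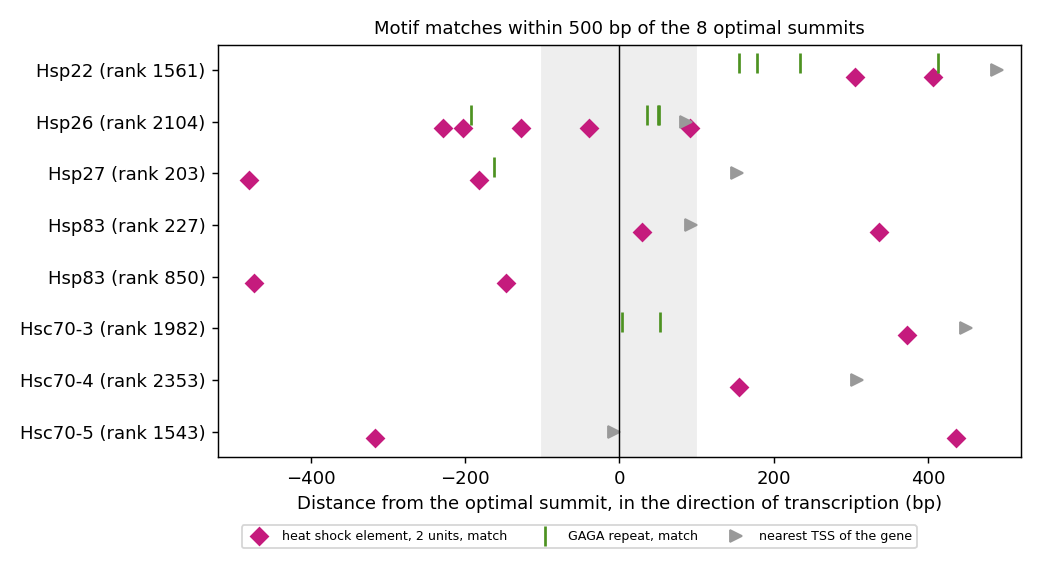
Distance in bp, in the direction of transcription, of each match of the 2-unit heat shock element (diamonds) and of the GAGA repeat (bars) from the 8 optimal summits, with the nearest TSS of the gene where it lies within 500 bp (grey triangles); the shaded band is the 200 bp window. Only Hsp26, Hsc70-3 and the strongest Hsp83 summit have a match in the band.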

How the data were processed

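ChIP-seq peak lists of 2 biological replicates, 1 group, were used as deposited, in 4 lists on build dm6; 4 lists on dm3 were not used. Per the deposited notes, relaxed peaks were called in each replicate and in both pooled against a control alignment, and the optimal list was thresholded by IDR. The signal of each peak (column 7) and the summit offset from the peak start (column 10) are the authors' own deposited values; the caller, the aligner and the IDR cut-off were not given in the sources used here. Read numbers were not analysed here, so precision cannot be derived from depth.

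Summits were computed as column 2 plus column 10, written 1-based, and joined to the Ensembl 115 annotation (BDGP6.54, dm6 coordinates); all 10 genes have the same ends in RefSeq. The set, the lists and the motifs were chosen with earlier results of these data known. Named genes were the 10 genes and cluster genes whose span overlaps a described peak. In each list, up to 4 other genes with an optimal summit were also named, strongest first. The neighbours CG14965, CG1578, CG8531, tefu and CG4461, and the list genes Gp93, Trap1 and Hsp68, were named after their values were seen. Hyou1, Bag and HSBP1 were not matched; 4 older names were matched to current symbols. Counting and motif search were tested on simulated data. No test between conditions was possible with 1 group. Alternatives varied flank, gene assignment, signal limit, replicate distance, motif and window, and left out each replicate. Python 3.11.15, pandas 2.3.3, numpy 2.4.6 and matplotlib 3.10.9 were used. The sequence under the Hsc70-3 summit is not reported here.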

Additional observations from a re-analysis of the deposited data

How the results depend on the processing

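The count of 7 genes with an optimal summit moved to 3 with no flank and to 4 among the optimal peaks of above-median signal, and ranged from 4 to 6 with a replicate left out, 4 being the value without replicate 2. The same settings gave 1236 and 1467 of all protein-coding genes, against 2439, with 2393 to 2506 with a replicate left out and 1445 by TSS within 500 bp. For the wider lists they gave 8 and 11, against 17, and 15 to 16. Of the 8 summits, 4 had a partner among the 3170 strongest of both replicates (50.4% of all optimal summits), 8 in the full relaxed lists (89.2%), and 5 to 7 when only one replicate was asked for (62.8% and 84.4%). Windows with a 3-unit heat shock element went from 0 to 2 with 2 units and were 0 to 1 at the strongest summits of single replicates, the 1 being Hsc70-4 in replicate 3. Those single-replicate windows are a different set from the 8. They include genes without an optimal summit and summits outside the 3170 strongest, and leave out the Hsp83 intron summit. GAGA repeats went from 2 to 4 in 400 bp and were 1 to 2 in the same single-replicate windows. The median distance of the strongest summits to the TSS, 152 bp over 7 genes, ranged from 122 to 160 bp in single replicates. A count stayed if its ratio to the main count was within a fixed limit. A TSS distance stayed if it differed by no more than the standard deviation of the 2 single-replicate distances. Those distances were also judged as alternatives, so their outcome was partly built in. Of 65 alternatives, 42 stayed within these limits and 23 moved, and no class for a reversal was defined. Among those that stayed, the TSS distances in the relaxed pooled list could not differ. The optimal list is the 3170 strongest peaks of that list. The cause of the moves was not tested. No paired analysis was possible because there is only 1 group and no result comes from a test. The 2 replicates, the unknown depth and the caller's unscaled signal limit all statements to positions and ranks.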
